A study of Homo sapiens with 46 samples.

Results

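Human embryonic kidney cells of the line HEK293 Flp-In T-REx, which is made for inducible transgenes, were depleted of ASCC3 and 4EHP together by siRNA, and the footprints of single ribosomes (monosomes) were compared with those of cells given control siRNA. The comparison rests on 4 of the 46 libraries of the series, 2 from the double knockdown and 2 from the knockdown control, chosen by their labels. Per the labels' protocols, knockdown cells were transfected with 75 nM siRNA for 72 h and again with 30 nM for 24 h, and lysates were treated with RNase I before ribosomes were pelleted and protected fragments were sequenced. The labels record no transgene for these cells. The knockdown arm held 10 monosome libraries in all, and the libraries with ASCC3 siRNA alone and with 4EHP siRNA alone, 2 of each, are set beside the double knockdown here, as are its disome footprints (from touching ribosome pairs) and its RNA-seq. The remaining monosome libraries came from cells given ABCE1 siRNA. They are not described here, but they entered the count filter, the average levels and the estimate of the spread in the monosome tests. The labels do not say that replicates came from separate cultures, so the p-values measure the spread between libraries, which may be technical.

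ASCC3 is a helicase of the complex that splits ribosomes when a trailing ribosome has run into a stalled one. 4EHP binds the mRNA cap without recruiting the initiation machinery and, with its partner GIGYF2, lowers initiation on bound mRNAs, among them mRNAs on which ribosomes have collided. Depletion of both therefore touches 2 responses to the same event, removal of the stalled ribosomes and a brake on new ones. The series concerns ribosome stalling by the release factor eRF1 at sense codons.

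The monosome libraries held 10106815 and 29096832 transcript counts in the double knockdown, against 20183334 and 18268812 in control cells. Each read can count in several isoforms, so these sums are larger than the number of reads. The ASCC3 libraries were the least even, with 4677576 and 14276001 counts. The 4EHP libraries had 10092703 and 13718248, and the 8 RNA-seq libraries of the knockdown arm had between 34097654 and 56402314. Levels are given as counts per 1000000 of these sums (CPM), for each assay on its own. Isoforms that carried the same reads were joined and are represented by 1 transcript, so that a transcript below is such a representative and several may belong to the same gene. The files list Ensembl transcript IDs without gene names, and no ID was found in the gene tables used here. The levels of the siRNA targets, of kidney line markers and of gene lists were therefore not analysed here, and transcripts are described by their ID, coding length and values. Transcripts named below for a deep fall may include those of the siRNA targets, and this was not established. It concerns ENST00000369162.7 and ENST00000522650.5, low in the conditions with ASCC3 siRNA, and ENST00000258416.8, low in RNA-seq and disomes of the conditions with 4EHP siRNA.

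Monosome footprints in the double knockdown differed from control on 3794 of 28299 tested transcripts, 13.4%, by edgeR's quasi-likelihood test at a Benjamini-Hochberg adjusted p of 0.05. Footprints rose on 2172 of them (7.68% of those tested) and fell on 1622 (5.73%). With TMM scaling, which centres the bulk of transcripts on no change, 1705 rose and 2143 fell, so the larger direction depends on the scaling. Most changes were modest. The median log2 fold change was 0.59 among the transcripts that rose and -0.49 among those that fell, against 0.05 over all tested. Changes above 2-fold were called on 424 transcripts that rose and 186 that fell. Without control replicate 1 the number of calls was 1820, without control replicate 2 it was 2020, and without replicate 2 of the double knockdown it was 1832, so the count depends on each of these libraries. Without replicate 1 of the double knockdown it was 2915.

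**Figure D1:**
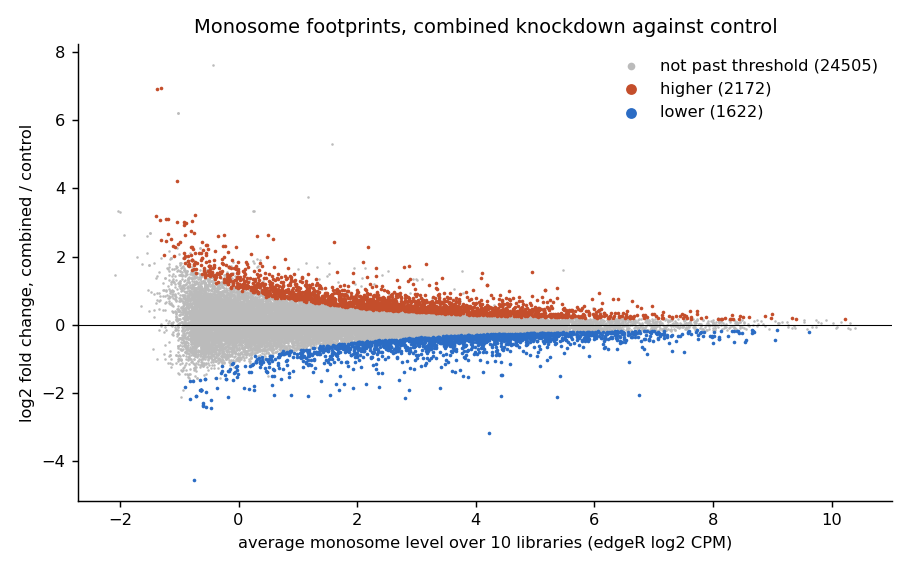
Each point is 1 of 28299 tested transcripts, with its average monosome level over the 10 libraries of the knockdown arm (edgeR log2 CPM) on the horizontal axis and the log2 fold change of the double knockdown over control on the vertical axis. Red points mark the 2172 transcripts that rose and blue points the 1622 that fell at an adjusted p of 0.05, and the deepest fall among well counted transcripts lies at -3.18.

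The spread between replicates gives the scale of these changes. Over the 4243 transcripts whose average log2 CPM was 4 or more, the SD of the log2 difference between the replicates was 0.132 in the double knockdown and 0.112 in control cells. The SD of the difference between the means of the double knockdown and of control was 0.265, and 25 transcripts differed by more than 2-fold between the means, against 1 between the replicates of the double knockdown and 0 between those of control. That 1 was ENST00000341460.6, named after its values were seen, with 1195 codons, which had 137 and 37.7 CPM in the double knockdown and 22.3 and 31.5 CPM in control cells. Its first double knockdown library stands apart, and its adjusted p (edgeR) was 0.38.

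Named transcripts are those with the highest or lowest log2 fold change among calls with non-overlapping libraries and a mean of at least 10 CPM in the higher group, a rule that 931 rises and 980 falls passed. Where double knockdown monosomes chose a transcript, its differences from the single knockdowns rest on the same libraries and may be overstated. The highest rise was on ENST00000302754.6, a transcript of 348 codons. Its monosome level was 13.8 and 16.1 CPM in the double knockdown, 10.3 and 12.3 CPM with ASCC3 siRNA, 6.54 and 8.46 CPM with 4EHP siRNA, and 4.31 and 4.54 CPM in control cells. The double knockdown was highest and control lowest, with no overlap between any of the 4 groups. The log2 fold change over control was 1.79 (SE 0.14, edgeR adjusted p = 1.17e-15), or 3.45-fold. Against 4EHP siRNA alone the footprints were higher by 1.0 (SE 0.14, adjusted p = 3.22e-07), while the difference from ASCC3 siRNA alone, 0.39 (SE 0.13), did not pass the test (adjusted p = 0.193). Its mRNA rose by as much, with 7.37 and 6.55 CPM in the double knockdown and 1.74 and 2.22 CPM in control cells (log2 fold change 1.81, SE 0.18, adjusted p = 9.59e-05). The single knockdowns had 2.95 and 2.72 CPM of mRNA with ASCC3 siRNA and 2.8 and 2.7 CPM with 4EHP siRNA, well below the double knockdown.

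The next rise was on ENST00000534403.5, of 163 codons. Monosome levels were 12.9 and 13.1 CPM in the double knockdown, 6.20 and 7.50 CPM with ASCC3 siRNA, 8.22 and 9.99 CPM with 4EHP siRNA, and 4.01 and 3.89 CPM in control cells. Both single knockdowns lay between the double knockdown and control, without overlap. The change over control was 1.71 (SE 0.14, edgeR adjusted p = 2.7e-14), or 3.28-fold. The double knockdown also exceeded ASCC3 siRNA alone by 0.86 (SE 0.15, adjusted p = 0.000469) and 4EHP siRNA alone by 0.50 (SE 0.13, adjusted p = 0.0171). Without ASCC3 replicate 2 the difference from ASCC3 siRNA alone was 1.07 with an adjusted p of 0.0501, and DESeq2 gave 0.82 without an adjusted p. Disomes on this transcript reached 55.3 and 72.9 CPM in the double knockdown and 57.6 and 52.8 CPM with 4EHP siRNA, against 18.7 CPM in the lone ASCC3 library and 12.7 and 11.6 CPM in control cells. The 2 conditions with 4EHP siRNA were high in disomes, and the 2 without it were low. Its mRNA was at 9.68 and 10.5 CPM in the double knockdown and at 4.18 and 3.76 CPM in control cells (log2 fold change 1.35, SE 0.15, adjusted p = 0.000178). With ASCC3 siRNA alone the mRNA was at 9.5 and 10.8 CPM, as high as in the double knockdown, and with 4EHP siRNA alone at 5.49 and 6.39 CPM, so the mRNA was not grouped as the disomes were.

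The deepest fall was on ENST00000369162.7, a long transcript of 2203 codons. Its monosome level was 3.07 and 2.96 CPM in the double knockdown and 3.42 and 4.48 CPM with ASCC3 siRNA, but 31.6 and 27.6 CPM with 4EHP siRNA and 28.5 and 25.5 CPM in control cells. The 2 conditions with ASCC3 siRNA were low and the 2 without it were high. The log2 fold change over control was -3.18 (SE 0.13, edgeR adjusted p = 9.03e-28), a level 9.04-fold lower. Against ASCC3 siRNA alone the change was -0.49 (SE 0.21) and did not pass (adjusted p = 0.368). Its mRNA fell less than its footprints, to 27.3 and 28.7 CPM in the double knockdown, against 60.4 and 60.8 CPM in control cells (log2 fold change -1.11, SE 0.10, adjusted p = 3.18e-05). RNA-seq showed 28.7 and 28.0 CPM with ASCC3 siRNA alone and 66.4 and 62.0 CPM with 4EHP siRNA alone, the same grouping as in the footprints.

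ENST00000215882.10, of 312 codons, had the next deepest fall. Monosome levels were 13.7 and 13.5 CPM in the double knockdown, 12.2 and 13.7 CPM with ASCC3 siRNA, 48.9 and 55.0 CPM with 4EHP siRNA, and 59.3 and 57.4 CPM in control cells. Here too the conditions with ASCC3 siRNA were low and those without it high. The change over control was -2.11 (SE 0.09, edgeR adjusted p = 2.09e-27), and the mRNA fell nearly as far, to 17.7 and 15.8 CPM in the double knockdown, against 60.6 and 59.1 CPM in control cells (log2 fold change -1.84, SE 0.12, adjusted p = 9.12e-07). Disomes were at 7.40 and 7.11 CPM in the double knockdown and at 45.2 and 41.3 CPM in control cells.

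Of the transcripts called higher, 2 had no count in either control library. They are named here after their values were seen, ENST00000307407.8 with 100 codons and ENST00000401931.1 with 96, and their counts are so alike that they may be the same reads. ENST00000307407.8 had 12 and 24 monosome counts in the double knockdown, 0 and 5 with ASCC3 siRNA, 1 and 2 with 4EHP siRNA, and 0 and 0 in control cells. Taking 3 counts over both control libraries as the floor gives a value that allows for counting error in control only. By it, monosomes on ENST00000307407.8 were at least 11.8-fold higher than in control cells (edgeR adjusted p = 2.41e-05). The lack of control counts chose this transcript, so the fold is a description. In RNA-seq it had 94 and 95 counts in the double knockdown, against 5 and 14 in control cells (log2 fold change 3.56, SE 0.50, adjusted p = 0.00211). The single knockdowns had 24 and 30 RNA-seq counts with ASCC3 siRNA and 15 and 1 with 4EHP siRNA, so the double knockdown was the highest condition in both assays. The excess over 4EHP siRNA alone passed in monosomes (adjusted p = 0.0232), and the excess over ASCC3 siRNA alone did not (adjusted p = 0.305).

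The 12 highest and the 12 lowest transcripts under the naming rule show where the double knockdown lay relative to each single knockdown. The 12 highest had log2 fold changes over control of 1.2 to 1.79 and coding lengths of 82 to 900 codons. Their median monosome level per library was 14.5 and 14.3 CPM in the double knockdown, 10.0 and 10.8 CPM with ASCC3 siRNA, 8.03 and 8.57 CPM with 4EHP siRNA, and 5.47 and 5.31 CPM in control cells. The medians of both single knockdowns lay between those of the double knockdown and of control. The 12 lowest had log2 fold changes of -3.18 to -1.38 and coding lengths of 87 to 2203 codons. Their medians were 8.36 and 7.48 CPM in the double knockdown and 8.12 and 7.0 CPM with ASCC3 siRNA, but 29.1 and 27.6 CPM with 4EHP siRNA and 25.8 and 27.3 CPM in control cells. The medians with ASCC3 siRNA alone were as low as those of the double knockdown, and those with 4EHP siRNA alone were as high as those of control. The double knockdown libraries chose these 24 transcripts, so the levels are a description and carry no test. At ranks 9 and 10 of the falls, ENST00000367042.5 and ENST00000354848.5 had like levels, with 25.8 and 29.5 CPM and 25.7 and 29.2 CPM in control cells. They may share reads, so the 12 falls may not be 12 separate cases, here and below.

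**Figure D2:**
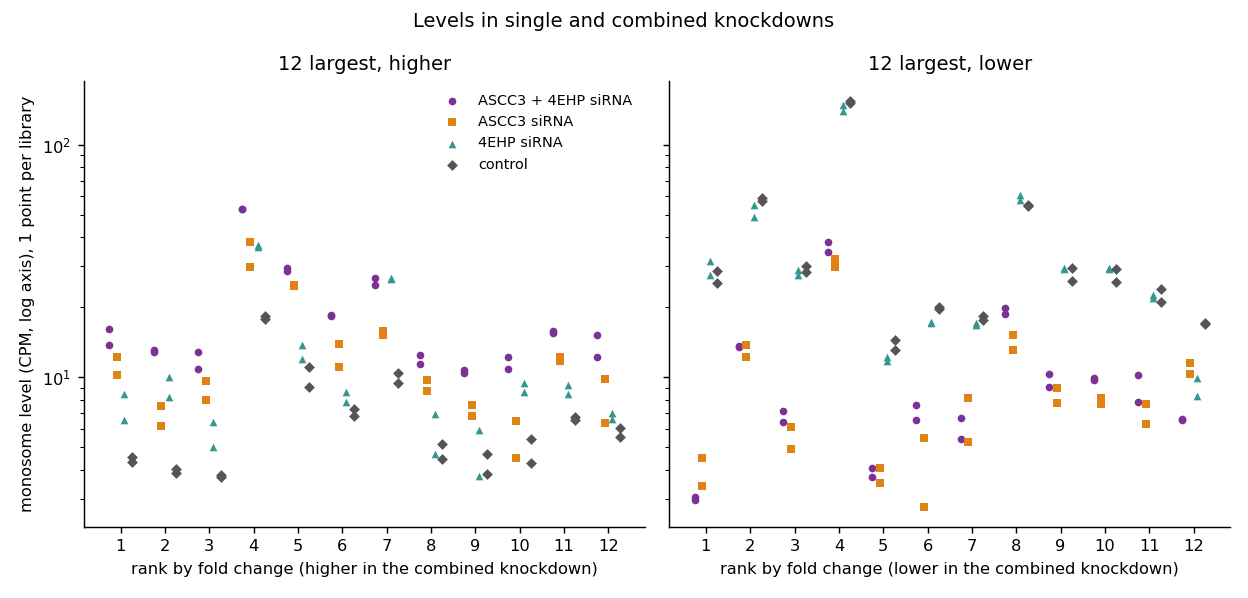
Monosome level in CPM (log axis) of the 12 transcripts with the highest rise (left) and the 12 with the deepest fall (right), ranked by fold change of the double knockdown over control, with 1 point per library. On the left the single knockdowns mostly lie between the double knockdown and control; on the right the ASCC3 libraries (squares) lie near the double knockdown (circles), and the 4EHP libraries (triangles) lie near control (diamonds) except at rank 12.

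Over all transcripts, the double knockdown was set against each single knockdown in the same fit. Against ASCC3 siRNA alone, 223 of 28299 transcripts differed (0.788%), 133 higher (0.47%) and 90 lower (0.318%). Against 4EHP siRNA alone, 1434 differed (5.07%), 795 higher (2.81%) and 639 lower (2.26%). With TMM scaling the splits were 86 higher and 196 lower against ASCC3 siRNA, and 489 higher and 911 lower against 4EHP siRNA, so the larger direction again depends on the scaling. The ASCC3 libraries were shallower and their replicates more spread, with an SD of the log2 replicate difference of 0.194 against 0.137 in the 4EHP libraries, and the part of this in the smaller count was not tested. Without ASCC3 replicate 2 the count against ASCC3 siRNA was 44, and without replicate 1 of the double knockdown it was 131. Without 4EHP replicate 1 the count against 4EHP siRNA was 639, without its replicate 2 it was 690, and without replicate 2 of the double knockdown it was 733.

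Under the same naming rule, the largest rise against ASCC3 siRNA alone was on ENST00000563995.1, a short transcript of 82 codons. It had 10.9 and 12.2 CPM in the double knockdown, 4.49 and 6.51 CPM with ASCC3 siRNA, 8.62 and 9.40 CPM with 4EHP siRNA, and 5.40 and 4.27 CPM in control cells. The conditions with 4EHP siRNA were the higher ones. The difference from ASCC3 siRNA was 0.98 (SE 0.16, edgeR adjusted p = 0.000266) and that from control 1.28 (SE 0.14, adjusted p = 7.17e-10). DESeq2 gave the first of these as 0.95, without an adjusted p. Its disomes were at 30.9 and 37.3 CPM in the double knockdown and at 9.97 and 9.22 CPM in control cells. They were at 25.9 and 47.8 CPM with 4EHP siRNA alone and at 9.06 CPM in the lone ASCC3 library, the grouping seen on ENST00000534403.5. The mRNA change, 0.40 (SE 0.21), did not pass (adjusted p = 0.328).

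By that rule, the deepest fall against ASCC3 siRNA alone was on ENST00000393033.9, of 334 codons. Monosome levels were 13.5 and 15.4 CPM in the double knockdown, 23.9 and 26.5 CPM with ASCC3 siRNA, 12.1 and 14.5 CPM with 4EHP siRNA, and 21.0 and 21.9 CPM in control cells. The conditions with 4EHP siRNA were low, and those without it were high. The difference from ASCC3 siRNA was -0.80 (SE 0.11, edgeR adjusted p = 5.07e-06) and that from control -0.54 (SE 0.10, adjusted p = 6.74e-05). The next fall, ENST00000587210.1 of 159 codons, differed from ASCC3 siRNA by -0.77 (SE 0.15, adjusted p = 0.00241) and from control by -0.59 (SE 0.13, adjusted p = 0.00123). Without ASCC3 replicate 2 neither difference from ASCC3 siRNA passed, with -0.70 on both (adjusted p = 0.0501 on ENST00000393033.9 and 0.27 on ENST00000587210.1). DESeq2 gave -0.82 on ENST00000587210.1 without an adjusted p.

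Against 4EHP siRNA alone, the largest rise under the naming rule was on ENST00000224784.10, of 378 codons. Its monosome level was 28.5 and 29.4 CPM in the double knockdown, 24.8 and 24.9 CPM with ASCC3 siRNA, 12 and 13.7 CPM with 4EHP siRNA, and 9.07 and 11.1 CPM in control cells. Both conditions with ASCC3 siRNA were high. The difference from 4EHP siRNA was 1.17 (SE 0.11, edgeR adjusted p = 1.05e-11), and that from ASCC3 siRNA, 0.22 (SE 0.11), did not pass (adjusted p = 0.44). ENST00000244741.9, of 165 codons, had 18.5 and 18.3 CPM in the double knockdown, 11.1 and 13.9 CPM with ASCC3 siRNA, 7.83 and 8.67 CPM with 4EHP siRNA, and 7.28 and 6.79 CPM in control cells. The double knockdown stood above both, by 1.14 over 4EHP siRNA (SE 0.13, adjusted p = 1.21e-09) and by 0.49 over ASCC3 siRNA (SE 0.12, adjusted p = 0.0354). The deepest falls were on ENST00000369162.7, described above, by -3.30 (SE 0.13, adjusted p = 8.99e-28), and on ENST00000522650.5, of 732 codons. Monosomes on ENST00000522650.5 were at 2.28 and 1.99 CPM in the double knockdown and 1.71 and 3.85 CPM with ASCC3 siRNA. They were at 9.91 and 11.2 CPM with 4EHP siRNA, and 10.3 and 7.99 CPM in control cells (difference from 4EHP siRNA -2.35, SE 0.19, adjusted p = 1.34e-13). Both conditions with ASCC3 siRNA were low, as on ENST00000369162.7, and whether both transcripts belong to the same gene was not established.

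Most transcripts with changed footprints had an RNA-seq fold change of the same sign, and in the main fit a smaller part of them passed the test in RNA-seq. In RNA-seq of the same conditions, 1328 of 33255 transcripts passed the test (3.99%), 937 higher (2.82%) and 391 lower (1.18%). The median log2 fold change over all transcripts was 0.11 in RNA-seq. It was 0.01 with TMM scaling, under which 479 rose and 634 fell. Among well counted transcripts, the SD of the log2 replicate difference in the double knockdown was 0.192 in RNA-seq and 0.132 in monosomes. In control cells it was alike, at 0.113 and 0.112. The chi-square per degree of freedom, which grows with depth, was 3.94 in RNA-seq of the double knockdown, 8.42 with ASCC3 siRNA, 13.8 with 4EHP siRNA and 1.99 in control cells. All 4 groups entered the fit. In fits on the compared libraries alone, RNA-seq gave 5601 calls and monosomes 3872, so which assay had more calls depends on the fit. The call count fell to between 116 and 192 when any 1 of the 4 compared RNA-seq libraries was left out (167 and 192 without replicates 1 and 2 of the double knockdown, 143 and 116 without those of control). Of the 2172 transcripts with more monosomes, 2107 were tested in RNA-seq, where 389 rose and 2 fell, and 93.1% had a positive fold change. Of the 1622 with fewer monosomes, 1591 were tested, of which 267 fell and 3 rose, and 11.1% had a positive fold change. Over all 26401 transcripts tested in both assays, 61.3% had a positive RNA-seq fold change. The median RNA-seq log2 fold change was 0.37 for the monosome rises, -0.30 for the monosome falls and 0.09 over all. Across the 4213 well counted transcripts, the log2 fold changes of both assays had a Pearson correlation of 0.69 and a Spearman correlation of 0.65; these are across transcripts, which are not independent, and from different libraries of the same conditions. All 12 of the highest rises in monosomes had a positive RNA-seq log2 fold change, from 0.40 to 2.12, and 11 passed the test. All 12 of the deepest falls had a negative one, from -2.24 to -0.84, and 10 passed.

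**Figure D3:**
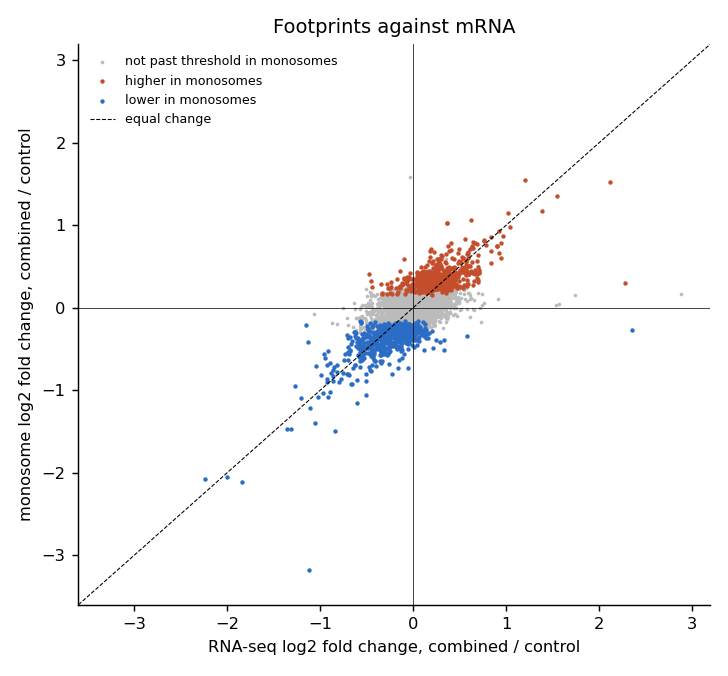
Log2 fold change of the double knockdown over control in RNA-seq (horizontal) and in monosomes (vertical) for 4213 transcripts with an average monosome log2 CPM of at least 4. Red and blue points rose or fell in monosomes at an adjusted p of 0.05. The Pearson correlation was 0.69, which does not show that the changes were equal in size. The dashed line marks equal change, and the point at -1.11 and -3.18, ENST00000369162.7, lies far below it.

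The largest mRNA rise under the naming rule was on ENST00000389840.6, which has 4463 codons. RNA-seq levels were 21.8 and 17.3 CPM in the double knockdown and 3.28 and 2.89 CPM in control cells (log2 fold change 2.66, SE 0.20, edgeR adjusted p = 2.13e-05). With ASCC3 siRNA alone its mRNA was at 11.2 and 17.1 CPM and with 4EHP siRNA alone at 4.91 and 5.13 CPM, so both conditions with ASCC3 siRNA were high. Its monosomes were sparse, at 2.08 and 1.2 CPM in the double knockdown and 0.545 and 0.383 CPM in control cells, and also rose (1.65, SE 0.40, adjusted p = 0.00287). On ENST00000341491.9, of 182 codons, RNA-seq showed 16.8 and 15.0 CPM in the double knockdown and 3.96 and 3.33 CPM in control cells (2.13, SE 0.17, adjusted p = 7.99e-06). Its monosomes were at 10.5 and 7.63 CPM in the double knockdown and 3.17 and 3.12 CPM in control cells (1.44, SE 0.17, adjusted p = 4.42e-09). Both groups were apart in both assays. The double knockdown exceeded ASCC3 siRNA alone by 0.96 (SE 0.19, adjusted p = 0.00362) and 4EHP siRNA alone by 0.99 (SE 0.18, adjusted p = 0.00014) in monosomes on this transcript.

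The deepest mRNA fall under it was on ENST00000258416.8, of 246 codons, which represents 8 joined transcripts. RNA-seq levels were 1.77 and 1.61 CPM in the double knockdown and 14.3 and 15.2 CPM in control cells (log2 fold change -3.12, SE 0.18, edgeR adjusted p = 4.26e-07). Disomes were likewise low, at 2.61 and 5.33 CPM in the double knockdown and 52.6 and 28.9 CPM in control cells. With 4EHP siRNA alone RNA-seq gave 1.25 and 1.06 CPM and disomes 2.68 and 0.724 CPM, against 14.3 and 10.6 CPM in RNA-seq and 46.5 CPM in the lone disome library with ASCC3 siRNA alone. In both of these assays the conditions with 4EHP siRNA were low, and those without it were high. Its monosomes did not follow. They were at 14.3 and 5.40 CPM in the double knockdown and at 10.7 and 11.5 CPM in control cells, so the libraries of the double knockdown lie on either side of control (-0.42, SE 0.50, adjusted p = 0.671). In the single knockdowns monosomes were at 6.41 and 11.9 CPM with ASCC3 siRNA and 11.2 and 6.49 CPM with 4EHP siRNA, where replicates also differed. The next mRNA fall, on ENST00000216034.6 of 143 codons, appeared in both assays. RNA-seq levels were 7.59 and 7.27 CPM in the double knockdown and 33.1 and 37.0 CPM in control cells (-2.24, SE 0.14, adjusted p = 9.12e-07), and monosome levels were 6.43 and 7.15 CPM in the double knockdown and 28.4 and 30.2 CPM in control cells (-2.08, SE 0.11, adjusted p = 1.27e-22).

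**Figure D4:**
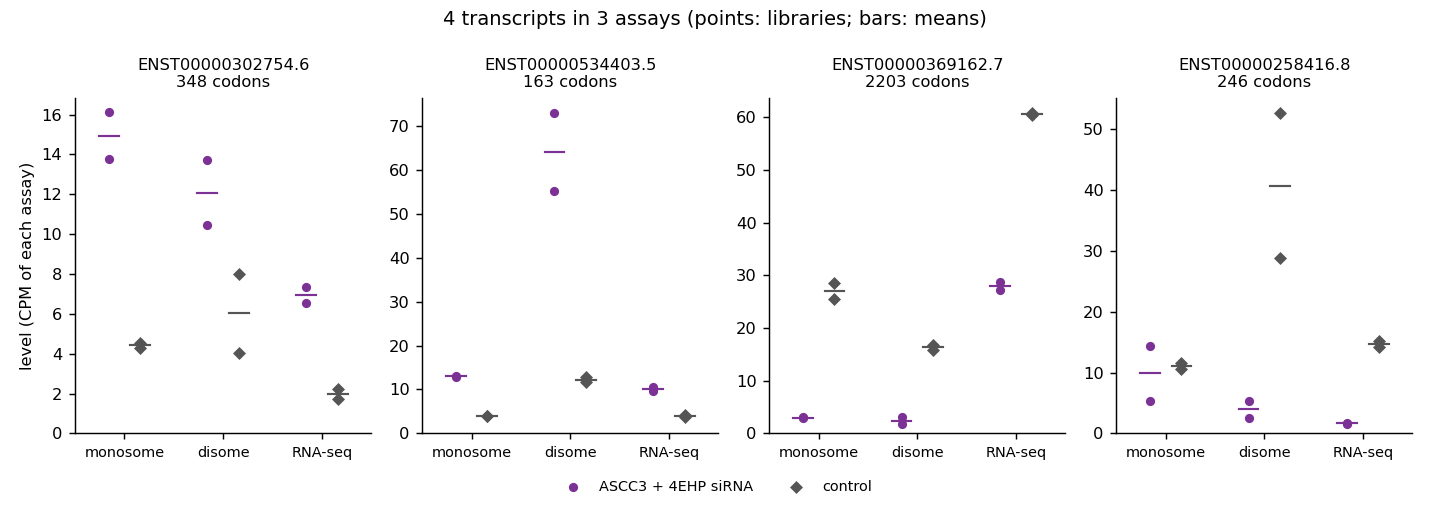
Level in CPM of each assay for 4 transcripts, with 1 point per library and a bar at the mean of 2 libraries, the double knockdown left of control. ENST00000302754.6 and ENST00000534403.5 are higher in the double knockdown in monosomes, disomes and RNA-seq, ENST00000369162.7 is lower in these 3 assays, and ENST00000258416.8 is lower in disomes and RNA-seq while its monosome points, 14.3 and 5.40 CPM, lie above and below those of control.

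Translational efficiency, the change of monosomes relative to mRNA, was tested as an interaction over 16 monosome and RNA-seq libraries. It passed on 22 of 35888 transcripts (0.0613%), 8 higher (0.0223%) and 14 lower (0.039%), and DESeq2 called 25. Without the adjustment, 2053 of the 35888 had a p under 0.05. The estimate of the spread included the single knockdowns, and in a fit on the compared libraries alone 182 transcripts passed after adjustment. The small number of calls in the main fit therefore cannot show that efficiency was unchanged. With 1 replicate of either condition left out of both assays, between 1 and 5 calls were made (3 and 5 without replicates 1 and 2 of the double knockdown, 1 and 2 without those of control). ENST00000369162.7 had a change in efficiency of -2.06 (SE 0.17, edgeR adjusted p = 1.22e-08), which stayed past the threshold under each of 10 alternative settings, from -2.14 to -1.97. ENST00000522650.5 had -1.31 (SE 0.24, adjusted p = 0.0208), a call lost whenever a replicate of either condition was left out, with changes of -1.49 to -1.10 over the 10 settings. The monosome rises and falls named first, ENST00000302754.6 (-0.04, SE 0.23, adjusted p = 1), ENST00000534403.5 (0.37, SE 0.22, adjusted p = 0.925) and ENST00000215882.10 (-0.26, SE 0.16, adjusted p = 0.925), did not pass.

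For efficiency the naming rule kept the level of at least 10 CPM, read in monosomes, and did not require non-overlapping libraries. The highest rise under it was on ENST00000246802.10, of 479 codons. Its monosomes were at 36.7 and 39.2 CPM in the double knockdown and 28.0 and 29.3 CPM in control cells, while its mRNA was at 42.5 and 33.3 CPM in the double knockdown and 53.5 and 51.3 CPM in control cells. The monosomes rose (0.42, SE 0.08, edgeR adjusted p = 0.000187), the mRNA change of -0.47 (SE 0.13) did not pass (adjusted p = 0.0544), and the efficiency change was 0.88 (SE 0.16, adjusted p = 0.0208). ENST00000597985.5, of 201 codons, had monosomes at 16.8 and 18.4 CPM in the double knockdown and 12.5 and 13.4 CPM in control cells and mRNA at 15.5 and 14.0 CPM in the double knockdown and 19.2 and 19.5 CPM in control cells. Its efficiency change was 0.84 (SE 0.16, adjusted p = 0.0303), its monosomes rose by 0.46 (SE 0.10, adjusted p = 0.000985), and its mRNA change of -0.39 (SE 0.12) did not pass (adjusted p = 0.077). The efficiency call on ENST00000246802.10 was lost under 3 of 10 alternative settings and that on ENST00000597985.5 under 4, each of them a left-out replicate.

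Both of the lowest values of efficiency rested on few RNA-seq counts. ENST00000612966.2, of 137 codons, had 14 and 12 RNA-seq counts in the double knockdown and 1 and 3 in control cells, and its monosomes were at 64.5 and 72.5 CPM in the double knockdown and 58.2 and 65.0 CPM in control cells (efficiency change -2.67, SE 0.49, edgeR adjusted p = 0.0303). ENST00000331442.4, of 227 codons, had 23 and 25 RNA-seq counts in the double knockdown and 4 and 7 in control cells, with monosomes at 27.6 and 24.9 CPM in the double knockdown and 29.7 and 32.8 CPM in control cells (-2.59, SE 0.37, adjusted p = 0.000957). Footprints were plentiful on both, and mRNA counts were near the floor of detection in control cells. The calls were lost under 5 and 2 of 10 alternative settings.

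Disome footprints were shallower, with 2297309 and 3936378 counts in the double knockdown and 4715435 and 2493885 in control cells, and are given without a test. Both disome libraries of the double knockdown lay above both of control on 4667 of 15494 transcripts with at least 20 disome counts (30.1%) and below on 2730 (17.6%). Of the transcripts with more monosomes, 1628 were measured in disomes, and 1049 lay above and 42 below. Of those with fewer monosomes, 1354 were measured, and 100 lay above and 693 below. All 12 of the highest monosome rises lay above control in disomes, and 11 of the 12 deepest falls lay below. Where the disome libraries of both conditions lay apart, they mostly lay on the same side as the monosomes.

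Well counted transcripts were also divided into 4 classes of about equal size by their disomes per mRNA in control cells, a measure taken without the double knockdown. In the class with the most disomes per mRNA, monosomes rose on 171 of 1056 transcripts and fell on 137. In the class with the fewest, they rose on 120 of 1056 and fell on 199. The middle classes held 121 rises and 167 falls of 1056, and 130 rises and 179 falls of 1055. The share of rises was highest in the top class, whose transcripts were also the shortest, with a median of 254.5 codons against 447 in the lowest class. With TMM scaling the top class held 136 rises and 189 falls and the lowest 93 and 258, so the direction in the top class turns with the scaling while the order of the extreme classes does not. The difference between classes was not tested, and control RNA-seq and disome libraries set the classes.

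Coding length, read as codons because no source used here states its unit, is listed for every transcript with counts. Monosomes rose on 329 and fell on 426 of 9942 transcripts of up to 150 codons (3.31% and 4.28%). They rose on 1212 and fell on 851 of 13298 transcripts of over 150 and up to 600 codons (9.11% and 6.40%). Over 600 and up to 1200 codons, 459 of 3745 rose and 257 fell (12.3% and 6.86%), and above 1200 codons 172 of 1314 rose and 88 fell (13.1% and 6.70%). Rises thus outnumbered falls except among the shortest transcripts. With TMM scaling falls also outnumbered rises between 150 and 600 codons, by 1133 to 954.

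Short transcripts collect fewer counts, and calls depend on counts. Rises made up 4.11% and falls 1.17% of 10863 transcripts with an average log2 CPM of up to 1, against 12.1% and 20.2% of 853 transcripts above 6. Among the 4243 transcripts whose average log2 CPM was 4 or more, which had 543 rises (12.8%) and 684 falls (16.1%), the share that rose was 6.19% up to 150 codons, 13.2% up to 600, 17.4% up to 1200 and 14.6% above 1200. The shares that fell were 17.6%, 16.5%, 14.7% and 13.5% in the same order. In the class of up to 150 codons, 49 transcripts rose and 139 fell. Above 1200 codons, 50 rose and 46 fell, a balance that turns to 43 and 61 with TMM scaling, as it does between 600 and 1200 codons, where 139 rose and 118 fell and TMM scaling gave 99 and 158.

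**Figure D5:**
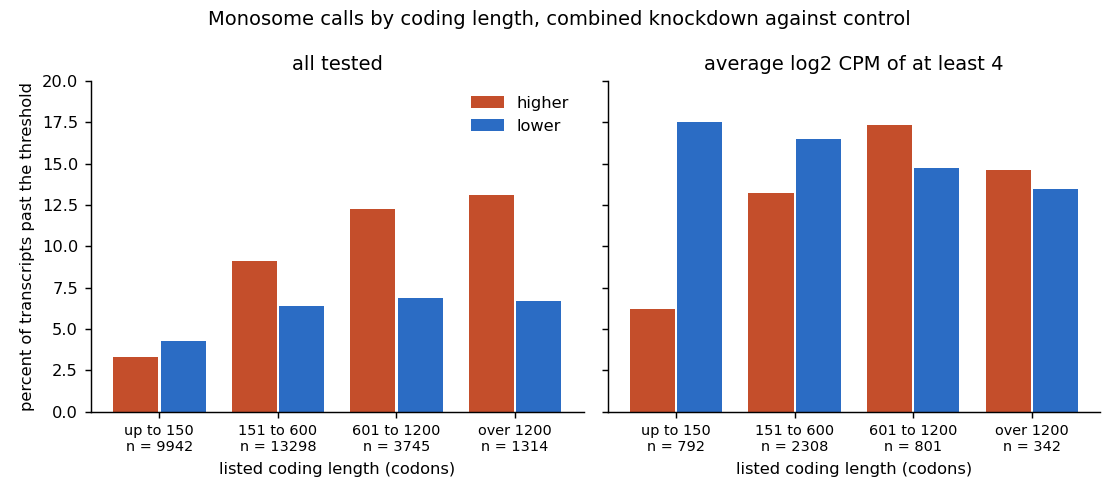
Percent of transcripts whose monosomes rose (red) or fell (blue) in the double knockdown against control at an adjusted p of 0.05, by listed coding length in codons, for all 28299 tested transcripts (left) and for the 4243 whose average log2 CPM was 4 or more (right). The share of rises is lowest in the class of up to 150 codons in both panels, at 3.31% and 6.19%.

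The summed footprints moved little with length. Transcripts of more than 1200 codons held 6.24% and 5.94% of the monosome counts in the double knockdown and 5.81% and 5.92% in control cells, so the groups lay close to each other. Those of up to 150 codons held 22.6% and 22.8% in the double knockdown and 22.9% and 22.8% in control cells. In RNA-seq, transcripts of more than 1200 codons held 10.5% and 10.2% in the double knockdown and 9.73% and 9.67% in control cells, and in disomes 5.69% and 5.40% in the double knockdown and 5.00% and 4.99% in control cells. Across the 4243 well counted transcripts, the Spearman correlation of coding length with the monosome difference between double knockdown and control was 0.10, and with the difference between the replicates of the double knockdown it was 0.11, while between the control replicates it was -0.02. By this rank measure, length went with the difference between the conditions no more closely than with that between the replicates of the double knockdown. A rank correlation does not give the size of a trend, and the sizes were not compared.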

How the data were processed

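Group and replicate number of each library come from its label. The deposited files give a whole-number count per Ensembl transcript and a length that was read as codons. Tools and build, per the submitters' processing notes, were STAR (2.7.0a), UMI-tools (1.1.1) and hg38; what counted the reads, with which annotation and strand setting, is not given in the sources used here. A read in shared exons appears in several isoforms, so transcripts within 40 lines whose replicate differences correlated above 0.7 (2 leading components removed, at least 500 counts) were joined to the one with the most counts, and lower ones only where their counts were identical. This made 54311 features from 97742 transcripts with counts, used in place of the genes that the design assumed. No transcript ID matched the gene tables, so the 19 lists (363 genes) and markers fixed for the work could not be used. Reads shared with near-identical copies, overlapping genes or antisense transcripts cannot be told apart.

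Counts were scaled by each library's count sum and tested with edgeR 4.0.16 in R 4.3.3 (quasi-likelihood F test, robust, two-sided, filter at a minimum count of 10, Benjamini-Hochberg over all features tested, threshold 0.05). All 10 monosome libraries, 8 RNA-seq libraries, or 16 of both for translational efficiency, shared an estimate of the spread. The 10 monosome libraries include those with ABCE1 siRNA, and the 16 do not. Alternatives were TMM scaling, no filter, DESeq2 1.42.0, uncollapsed isoforms, a fit on the compared libraries, a replicate block and each replicate left out. The fit was tested on simulated data with the same spread in every group. That simulation cannot show how the fit behaves where groups differ in spread, as the RNA-seq groups did. Named transcripts were the 2 highest and 2 lowest changes per comparison among calls with non-overlapping groups and a mean of at least 10 CPM in the higher group. For translational efficiency, non-overlap was not required and the level was that of monosomes. Members, lists and rules were chosen with earlier results of these data known. Replicate libraries differed beyond sampling noise in a chi-square test, with values per degree of freedom of 1.33 to 1.68 in the monosome groups compared and of 1.99 to 13.8 in the RNA-seq groups.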

Additional observations from a re-analysis of the deposited data

How the results depend on the processing

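Against control, the 3794 monosome calls became 1233 with DESeq2 (410 higher, 823 lower) and 10210 with isoforms not collapsed, and ranged from 1820 to 2915 with a replicate left out. The 1328 RNA-seq calls became 2240 with no count filter, 825 with DESeq2 (309 higher, 516 lower), 3234 with isoforms not collapsed and 5601 in a fit on the compared libraries alone, and 116 to 192 with a replicate left out. The 22 calls of translational efficiency became 56, 43 and 182 with no filter, with isoforms not collapsed and in the fit on the compared libraries, and 1 to 5 with a replicate left out. Against ASCC3 siRNA, the 223 calls became 491 with the replicate block, 760 with isoforms not collapsed and 68 in the fit on the compared libraries, and 44 to 164 with a replicate left out; DESeq2 made 176 (23 higher, 153 lower). Against 4EHP siRNA, the 1434 calls became 560 with DESeq2 (120 higher, 440 lower) and 3900 with isoforms not collapsed, and 639 to 1098 with a replicate left out. Uncollapsed isoforms count the same reads repeatedly; the cause of the other moves was not tested. The remaining total counts of calls in these comparisons were within 1.5 times.

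With the replicate number as a block, the counts were 4718 for monosomes against control, 1347 for RNA-seq, 25 for translational efficiency, 491 against ASCC3 siRNA (223 without the block) and 1991 against 4EHP siRNA. Differences between replicate 1 and 2 correlated between the groups compared at 0.07 for monosomes against control, -0.02 for RNA-seq, 0.31 against ASCC3 siRNA and 0.19 against 4EHP siRNA. The labels name no source shared by libraries of the same number, so the number was not treated as a pairing in the main fit. Whether such libraries share a source was not tested.

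Of 247 values of named transcripts under the alternatives, 223 kept their direction and side of the threshold, 21 lost their call and 3 changed sign. DESeq2 gave no adjusted p for 3 further values. The sign changes were the translational efficiency of ENST00000302754.6, not called at -0.04, which was 0.013 with TMM scaling, 0.15 without replicate 1 of the double knockdown and 0.08 without control replicate 1, in a range of -0.25 to 0.15 with a replicate left out. Of 80 counts by length class, 40 moved by over 1.5 times. The disome libraries of these conditions, with 1381905 to 4715435 counts, were given no test.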
